A study of Mus musculus with 7 samples.

Results

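The 10 genes described here, Gfap, Aqp4, Aldh1l1, Slc1a2, Slc1a3, Slc6a11, Aldoc, Sox9, S100b and Fgfr3, are widely used to recognise astrocytes. They are a list of names, with no threshold on their values, from the 49315 genes counted in each library, and each was found by its symbol. RNA-seq had been carried out on cultured primary mouse oligodendroglia, with 4 libraries from wildtype controls and 3 libraries from Klf13-knockouts, all after 6 days under differentiating conditions. Klf13 was deleted throughout the knockout pups, so that its loss was not restricted to oligodendroglia. The precursors came from brains of newborn pups of both sexes, were shaken off mixed glia and depleted of microglia, and received thyroid hormone during differentiation in both genotypes. Each library is labelled a biological replicate. P-values measure the spread between these libraries, since the labels do not say how the cultures were separated. In bulk RNA of this kind, fewer cells of a type and less RNA per cell cannot be told apart.

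Astrocytes share a precursor pool with neurons and oligodendrocytes and take over tasks that neurons depend on. They clear glutamate and GABA from the extracellular space, move water and ions between vessels and tissue, and supply metabolites from glycolysis. Some of the genes used as their markers are also transcribed in other glia. S100b is known from maturing oligodendrocytes, and Fgfr3 and Sox9 from early glial precursors. Purified oligodendroglial cultures usually keep a number of astrocytes and may also hold cells that have not settled on one glial fate. The comparison therefore asked whether the astrocyte genes differed between genotypes and whether they moved as one group over the 7 libraries.

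Of the 10 genes, 8 were higher in the Klf13-knockouts (Gfap, Aqp4, Aldh1l1, Slc1a2, Slc1a3, Slc6a11, Aldoc and Sox9), by 1.39-fold to 3.01-fold. None was lower at the threshold, and S100b and Fgfr3 did not pass it. The threshold was an adjusted p of 0.05 in the quasi-likelihood test of edgeR, with p-values adjusted after Benjamini and Hochberg over all 18352 genes tested, of which 11.6% were higher in the knockouts and 12.2% lower. Among the 8 genes, Aqp4, Slc1a3 and Slc6a11 also reached a log2 fold change of 1, that is 3 of 10 genes against 3.97% of all tested genes, whereas 3.08% were at -1 or below. The median log2 fold change of the 10 genes was 0.65, and that of all tested genes was -0.0037. The number of genes that passed depended on the knockout libraries. Without knockout replicate 2 only Slc1a3 passed, where 4.57% of all tested genes were higher, and without knockout replicate 3 Gfap, Aldh1l1, Slc1a3 and Sox9 passed, where 8.27% were higher. The direction of all 10 genes was the same in every one of these fits. No knockout library carries replicate number 4, so control replicate 4 adds nothing to the genotype difference with the replicate number as a block. In that fit 7 genes were higher and 1 was lower, where 9.49% of all tested genes were higher. Slc1a2 then missed the threshold (edgeR quasi-likelihood adjusted p = 0.0508) and S100b passed it as lower in the knockouts (adjusted p = 0.0204 from the same test), while the number above a log2 fold change of 1 went from 3 to 1, against 3.07% of all tested genes in that fit. Leaving out control replicate 3 or control replicate 4 also lowered that number to 1, and leaving out knockout replicate 2 or knockout replicate 3 lowered it to 0.

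Libraries held 24507471 to 59596479 counts on genes, and the lowest raw count of any of the 10 genes in any library was 711, so that depth did not limit their detection. Klf13 had 10915, 11769, 11999.5 and 10669.9 normalized counts over the control libraries, in the order of their replicate numbers, and 802, 876 and 961 over the knockout libraries. On average 7.76% of the control level remained, so the genotype labels hold in all 7 libraries. Myelin and lineage transcripts of oligodendroglia were abundant in the controls, at an RPKM (counts scaled to exonic length and library size) of 1214 ± 90.8 for Mbp and 540 ± 37.5 for Olig1 (SD, n = 4). The cultures thus carried the defining transcripts of the labelled cell type.

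Klf13 is a zinc finger factor of a family known to bind GC boxes and CACCC boxes. The stretches of 250 bases before the transcription start were therefore searched for GGGCGG and CCACCC on both strands. On the opposite strand GGGCGG reads CCGCCC, which differs from CCACCC in a single letter. No stretch counts as both, but matches that lie side by side can share bases. Promoters were taken from RefSeq on GRCm38.p6. Entries were found for 8 of the 10 genes, with a second start for Aldoc and Fgfr3, and none for Aqp4 and Sox9. The sequences of Gfap, Slc1a3, Slc6a11 and S100b are shown because they cover the most abundant filament gene, a glutamate transporter, the gene with the largest difference and a gene with lower values in the knockouts. The windows of Gfap, Aldh1l1 and Slc1a2 and the second windows of Aldoc and Fgfr3 lay wholly inside the gene bounds given with the counts. Each is written in the direction of transcription, 5′ to 3′, with matches to any of the motifs searched in capitals:
Gfap (chr11:102897201-102897450, minus strand): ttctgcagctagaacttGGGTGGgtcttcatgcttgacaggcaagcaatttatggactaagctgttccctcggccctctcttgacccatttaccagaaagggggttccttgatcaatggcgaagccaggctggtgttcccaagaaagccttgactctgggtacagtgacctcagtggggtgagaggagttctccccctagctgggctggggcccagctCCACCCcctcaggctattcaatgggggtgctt
Slc1a3 (chr15:8710808-8711057, minus strand): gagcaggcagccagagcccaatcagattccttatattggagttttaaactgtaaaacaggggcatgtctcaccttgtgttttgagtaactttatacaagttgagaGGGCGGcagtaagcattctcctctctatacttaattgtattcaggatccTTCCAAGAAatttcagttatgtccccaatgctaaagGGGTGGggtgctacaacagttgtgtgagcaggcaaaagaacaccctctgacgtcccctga
Slc6a11 (chr6:114130991-114131240, plus strand): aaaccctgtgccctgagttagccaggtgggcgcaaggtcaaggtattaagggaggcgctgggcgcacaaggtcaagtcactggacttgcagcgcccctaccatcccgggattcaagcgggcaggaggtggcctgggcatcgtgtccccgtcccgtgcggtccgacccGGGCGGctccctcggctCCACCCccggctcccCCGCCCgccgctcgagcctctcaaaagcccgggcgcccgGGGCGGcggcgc
S100b (chr10:76253586-76253835, plus strand): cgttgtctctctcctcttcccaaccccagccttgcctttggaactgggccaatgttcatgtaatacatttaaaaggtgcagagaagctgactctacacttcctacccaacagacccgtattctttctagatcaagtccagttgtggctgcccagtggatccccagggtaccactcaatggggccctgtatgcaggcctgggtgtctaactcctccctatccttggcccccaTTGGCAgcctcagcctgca

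GGGCGG was present before 5 of the 8 genes (Aldh1l1, Slc1a3, Slc6a11, Aldoc and Fgfr3), and 32.7% of the 32851 RefSeq windows of this length held it. CCACCC was present before 3 (Gfap, Slc1a3 and Slc6a11), against 28.1% of all windows. The promoter of Slc6a11 held 3 GC boxes and 1 CACCC box in a sequence of 71.2% GC, where the median window had 52.4%. Neither motif stood in the windows of Slc1a2, which was higher in the knockouts, or of S100b, which was not. Fgfr3, which did not differ beyond its spread, carried GGGCGG at both of its starts. Motifs of factors known from astrocyte genes were searched in the same way. TTCNNNGAA, to which STAT proteins bind, was found in 2 genes, Slc1a3 and Aldoc, against 7.02% of all windows. TTGGCA, a part of the site of nuclear factor I proteins, was found in Aldoc and S100b, against 12.3%. Neither ACAAAG nor ACAATG, letters that SOX proteins bind, stood in any of the members' windows, although 16.5% and 10.7% of all windows held them. Counts of members are genes, of which Aldoc and Fgfr3 have 2 windows each, whereas the shares are of single windows, so that the numbers differ in unit. A match is a stretch of letters and no evidence of binding, and these windows leave out enhancers.

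Gfap, the intermediate filament protein that gives astrocytes their cytoskeleton, had the highest counts of the group. The gene (ENSMUSG00000020932) lies on chromosome 11, 102887336 to 102900912, minus strand of GRCm38. Its normalized counts were 65250.1, 72172, 81418 and 51972 across control libraries, listed by replicate number, and 99594, 123597 and 97364 across knockout libraries. Every knockout library lay above every control. Transcript levels rose from 67703 ± 12404 (SD, n = 4) to 106851 ± 14545 (SD, n = 3), or 0.66 on the log2 scale (standard error 0.16, 95% confidence interval 0.29 to 1.03, edgeR quasi-likelihood adjusted p = 0.0240). Aqp4 encodes the water channel that astrocytes concentrate in the endfeet around vessels. It (ENSMUSG00000024411; chromosome 18, 15389394 to 15403684, minus strand) had 15639, 17230.1, 12481 and 6273 normalized counts across control libraries and 27719, 31091 and 29602 across knockout libraries. The controls were spread over 2.75-fold, with control replicate 4 lowest, whereas the knockouts lay within 1.12-fold of each other and all above the controls. The means were 12906 ± 4842 and 29471 ± 1690.0, a difference of 1.19 on the log2 scale (standard error 0.30, 95% confidence interval 0.48 to 1.90, edgeR quasi-likelihood adjusted p = 0.0288). Without control replicate 3 or without any 1 of the knockout libraries, the adjusted p of Aqp4 was between 0.0536 and 0.0914.

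Aldh1l1 and Aldoc are the metabolic enzymes of the list. The product of Aldh1l1 oxidises formyltetrahydrofolate in one-carbon metabolism, and its promoter drives the transgenes most used to label astrocytes. The gene (ENSMUSG00000030088; chromosome 6, 90486427 to 90600203, plus strand) had 1052, 1368, 1428 and 972 normalized counts across control libraries and 1825, 1885 and 1916 across knockout libraries. The 3 knockout libraries were within 1.05-fold of each other and above all controls. Aldh1l1 rose 1.56-fold, or 0.64 on the log2 scale (standard error 0.14, 95% confidence interval 0.31 to 0.97, edgeR quasi-likelihood adjusted p = 0.0170). Exons of Gm45901 and Gm15756 overlap 13.4% of its exonic bases, but both together had 10 counts in all libraries. Aldoc, the aldolase of brain glycolysis (ENSMUSG00000017390; chromosome 11, 78322968 to 78327781, plus strand), had 16162, 15938, 11106 and 16769 normalized counts across control libraries and 21207, 21665 and 19843 across knockout libraries. Control replicate 3 stood apart below the other 3 controls, and all knockouts were above all controls. The difference was the smallest among the 8 genes that rose, 1.39-fold, a difference of 0.48 on the log2 scale (standard error 0.14, 95% confidence interval 0.16 to 0.80, edgeR quasi-likelihood adjusted p = 0.0437). Aldoc missed the threshold in 7 of the 18 alternative fits, among them those without control replicate 1 or 2 or without any 1 of the knockout libraries, where its adjusted p was between 0.0583 and 0.126. Its log2 fold change stayed between 0.36 and 0.56 in all 18.

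Glutamate is taken up by the products of Slc1a2 and Slc1a3, and GABA by that of Slc6a11. Slc1a3, the glutamate transporter that appears first in astroglial development (ENSMUSG00000005360; chromosome 15, 8634124 to 8710764, minus strand), had 10471, 11173, 8122 and 6733 normalized counts across control libraries and 16612, 19407 and 19843 across knockout libraries. The lowest knockout was 1.49-fold above the highest control. Slc1a3 rose 2.04-fold (log2 fold change 1.03, standard error 0.17, 95% confidence interval 0.62 to 1.44, edgeR quasi-likelihood adjusted p = 0.00710), and it was the only one of the 10 genes to pass in all 18 alternative fits. Slc1a2, the major glutamate transporter of mature astrocytes (ENSMUSG00000005089; chromosome 2, 102658659 to 102790784, plus strand), had 18542, 16394, 11939 and 14108 normalized counts across control libraries and 21886, 23516 and 24269 across knockout libraries. The groups did not overlap, and here control replicate 3 and not control replicate 4 was lowest. Slc1a2 rose 1.52-fold, a difference of 0.61 on the log2 scale (standard error 0.14, 95% confidence interval 0.28 to 0.94, edgeR quasi-likelihood adjusted p = 0.0212; with the replicate block, adjusted p = 0.0508).

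Slc6a11, which encodes a GABA transporter of astrocytes (ENSMUSG00000030307; chromosome 6, 114131241 to 114249952, plus strand), showed the largest difference of the 10 genes. It had 1902, 2023, 994 and 666 normalized counts across control libraries and 3429, 5081 and 4085 across knockout libraries. The controls fell into a higher pair, replicates 1 and 2, and a lower pair, replicates 3 and 4, with 3.04-fold between highest and lowest. All knockouts were at least 1.69-fold above the highest control. The means were 1396 ± 669 and 4198 ± 832, and the log2 fold change was 1.59 (standard error 0.38, 95% confidence interval 0.71 to 2.48, edgeR quasi-likelihood adjusted p = 0.0231). Without knockout replicate 2 the adjusted p was 0.0853, and without knockout replicate 3 it was 0.0516. In fits that left out control replicates 3 and 4 together, all 8 genes still passed, and the log2 fold change of Slc6a11 was 1.1.

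Sox9 is the transcription factor that precedes gliogenesis and is kept in astrocytes, and Fgfr3 is a receptor for fibroblast growth factors expressed in astroglial precursors. Sox9 (ENSMUSG00000000567; chromosome 11, 112782224 to 112787760, plus strand) had 1543, 1731, 1429.9 and 1012 normalized counts across control libraries and 2268, 2703 and 2590.2 across knockout libraries. All knockouts were above all controls, and control replicate 4 was again lowest. Sox9 rose 1.76-fold (log2 fold change 0.82, standard error 0.17, 95% confidence interval 0.42 to 1.22, edgeR quasi-likelihood adjusted p = 0.0141). Fgfr3 (ENSMUSG00000054252; chromosome 5, 33721674 to 33737068, plus strand) had 3408, 4038, 2261 and 4568 normalized counts across control libraries and 3324, 3282 and 2610.1 across knockout libraries. The knockout values lay inside the range of the controls, where control replicate 4 was highest. The log2 fold change of Fgfr3 was -0.22 (standard error 0.23, 95% confidence interval -0.75 to 0.31, edgeR quasi-likelihood adjusted p = 0.545). The upper end of this interval was below the log2 fold change of Aldoc, the smallest of the 8 genes that rose. The interval of Aldoc, 0.16 to 0.80, overlapped that of Fgfr3, and the difference between the genes was not tested. Exons of G630022F23Rik on the opposite strand cover 13.9% of its exonic bases, and this gene had 892 counts in all libraries against 23440 for Fgfr3. The strand setting of the counting was not stated, so that reads of the 2 genes may not have been separated.

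S100b, a calcium-binding protein of astrocytes and maturing oligodendrocytes (ENSMUSG00000033208; chromosome 10, 76253853 to 76261159, plus strand), had lower values in the knockouts. It had 33823, 29784, 28202 and 48230.4 normalized counts across control libraries and 28044, 22661 and 21692 across knockout libraries. All knockouts lay below all controls, but the highest knockout was only 1.01-fold under the lowest control. The log2 fold change was -0.54 (standard error 0.20, 95% confidence interval -1.0 to -0.07, edgeR quasi-likelihood adjusted p = 0.0923), which missed the threshold. Under DESeq2's Wald test the adjusted p was 0.0389, with the ribosomal share of the libraries as a covariate 0.0383, and with the replicate block 0.0204. Over all tested genes, 18.3% had every knockout above every control and 18% every knockout below every control, together 36.2%. Among the 10 genes these numbers were 8 and 1.

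**Figure D1:**
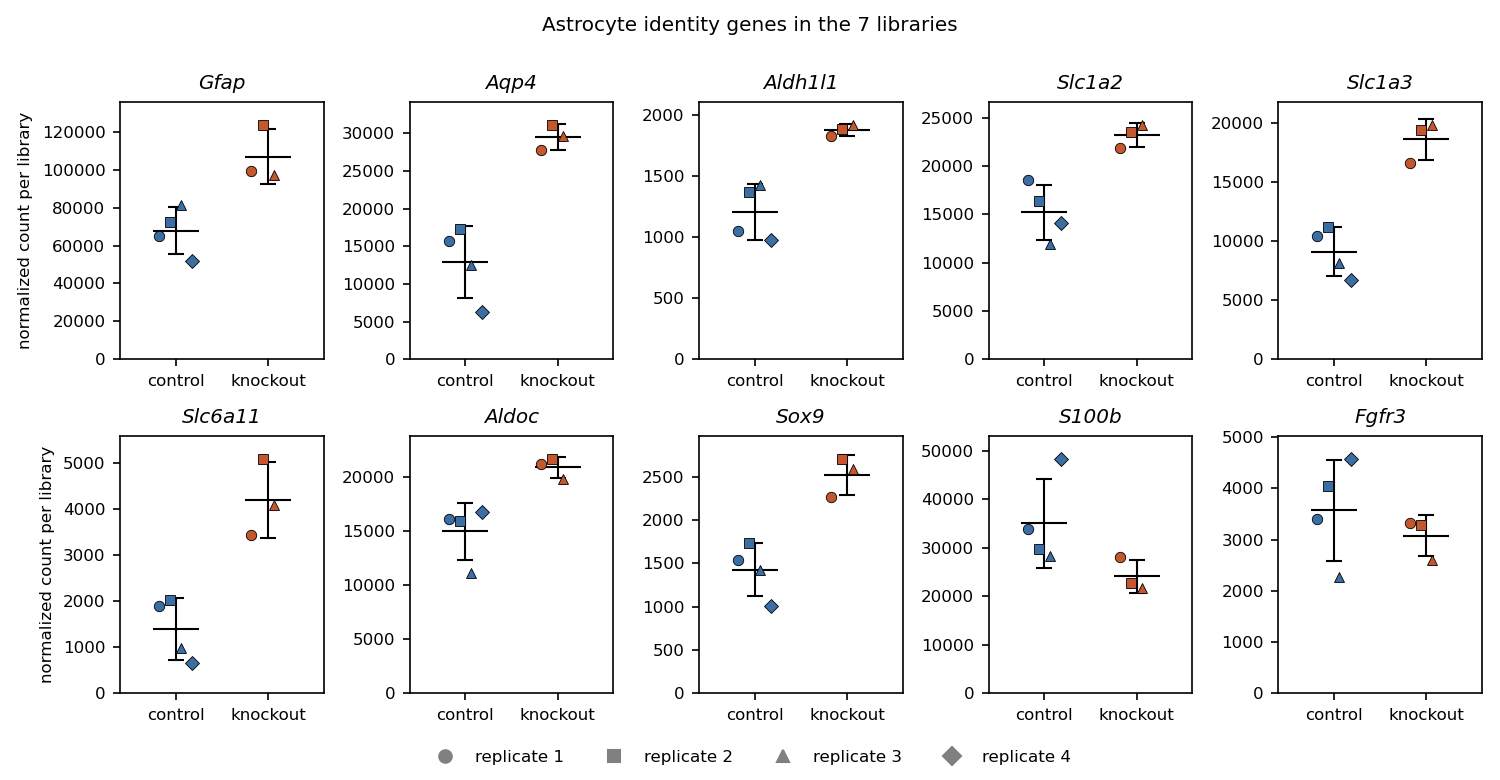
Normalized counts (vertical axes, linear, starting at 0) of the 10 astrocyte genes in 4 wildtype control and 3 Klf13-knockout libraries, 1 panel per gene. Points are libraries, and horizontal lines with bars give the mean and SD of a group. Knockout points lie above all control points in 8 panels, below them in the S100b panel and among them in the Fgfr3 panel.

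Levels of different genes were compared as RPKM values computed with the scaled library sizes. In the controls S100b was highest at 537 ± 139.9 (SD, n = 4), followed by Gfap at 365 ± 66.9, and the ranges of these 2 genes overlapped. Aldoc followed at 105 ± 18.2 and Aqp4 at 57.8 ± 21.7, both separate from the genes above them in every library. Slc1a2 at 26.4 ± 4.94 and Slc1a3 at 24.3 ± 5.49 overlapped, and the range of Aqp4 reached that of Slc1a2 in control replicate 4. The low end consisted of Fgfr3 (11.3 ± 3.16), Sox9 (7.86 ± 1.68), Slc6a11 (6.29 ± 3.02) and Aldh1l1 (6.07 ± 1.14), each overlapping the next in this order. In the knockouts Gfap was highest at 576 ± 78.5 (SD, n = 3), above S100b at 370.0 ± 52.5 in every library. Slc1a3 (49.6 ± 4.67) came before Slc1a2 (40.2 ± 2.11), and Slc6a11 moved from rank 9 to rank 7 at 18.9 ± 3.75. Fgfr3 took the opposite way from rank 7 to rank 9 at 9.77 ± 1.27. Its knockout range, 8.30 to 10.57, held that of Aldh1l1 at rank 10, 9.20 to 9.66. On the same scale the control mean of S100b was close to the 540 of the lineage gene Olig1, whereas Fgfr3, Sox9, Slc6a11 and Aldh1l1 were all below the 61.8 ± 1.77 of the precursor gene Pdgfra.

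Ratios between genes within a library do not depend on the scaling of library sizes, and the pairs below were picked after their values were seen. Gfap to S100b ranged from 0.379 to 1.02 in the controls and from 1.25 to 1.92 in the knockouts. S100b to Aqp4 ranged from 5.92 to 26.3 in the controls and from 2.5 to 3.46 in the knockouts. That these ratios separate the genotypes follows from the single genes and adds no evidence. Every knockout was above every control for Gfap and Aqp4, and below every control for S100b. How often ratios of other gene pairs separate the genotypes was not computed. Slc1a3 to Slc1a2, the transporter of early astroglia relative to that of mature astrocytes, ranged from 0.734 to 1.05 in the controls and from 1.17 to 1.27 in the knockouts.

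The question whether the 10 genes moved together was addressed with the log2 CPM (counts scaled to library size) of each gene, centred on its mean over the 7 libraries. Of the variance of the 10 genes, 90.1% lay on the first principal component and 7.19% on the second. Loadings on the first component were positive for the 8 genes that rose, from 0.13 for Aldoc to 0.61 for Slc6a11, and negative for S100b (-0.20) and Fgfr3 (-0.07). The difference between genotypes enters this component. After subtraction of the group means, which leaves only the spread between libraries of one genotype, the first component held 71.8% and the second 23.1%. Scores on that first component were 0.70, 0.97, -0.04 and -1.63 across control libraries and -0.41, 0.33 and 0.08 across knockout libraries. It thus mostly described the spread of the controls, with control replicate 4 farthest out. Neither 90.1% nor 71.8% was set beside the share for other sets of 10 genes. Slc6a11 and Aqp4 had the largest loadings there, at 0.64 and 0.54, while Aldoc (-0.02), Fgfr3 (-0.11) and S100b (-0.26) had negative ones. Scaling each gene to unit variance lowered the share of the first component over all libraries to 78.1%. Correlations between genes were not computed within groups of 4 and 3 libraries.

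Averaged over the 10 genes, centred log2 values by replicate number were -0.13, -0.05, -0.43 and -0.53 among control libraries and 0.33, 0.47 and 0.35 among knockout libraries. Controls 3 and 4 were thus lower than controls 1 and 2, and the knockouts were close to each other. Control replicate 4 had the lowest control value for 6 genes (Gfap, Aqp4, Aldh1l1, Slc1a3, Slc6a11 and Sox9) and the highest for Aldoc, S100b and Fgfr3. Control replicate 3 was lowest for the remaining 4, Slc1a2, Aldoc, S100b and Fgfr3, and highest for Gfap and Aldh1l1. The low controls were therefore low for most but not all of the genes. In the knockouts, replicate 1 was lowest for 6 genes and replicate 2 highest for 5.

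**Figure D2:**
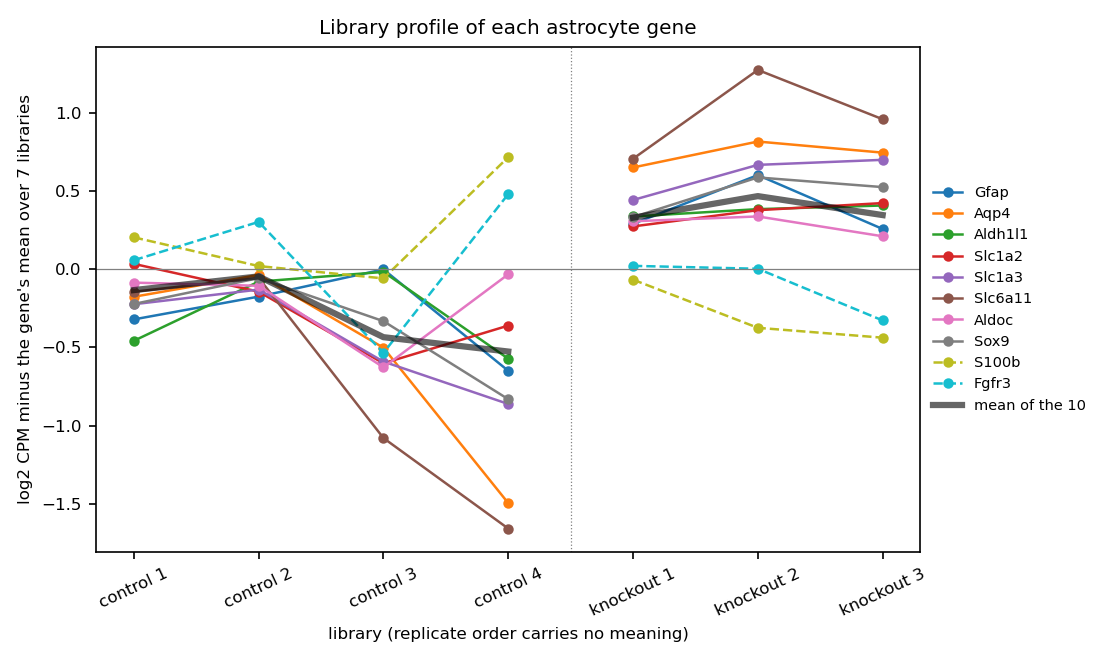
Centred log2 CPM (vertical axis) of the 10 astrocyte genes in the 7 libraries (horizontal axis), with the mean of the 10 genes as a thick line. Lines only join values of the same gene and imply no order of the libraries. The mean is lowest in control replicate 4 (-0.53) and highest in knockout replicate 2 (0.47). S100b is highest in control replicate 4, and so is Fgfr3, which is lowest in control replicate 3.

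Genes with the most similar course were sought among 12764 tested genes with a mean of at least 100 normalized counts, by the root mean square difference from the mean profile of the 10 astrocyte genes over the 7 libraries. The closest were Gpr45, with a difference of 0.0346 on the log2 scale, Hmgb3 with 0.0404, Tox2 with 0.0455, Dclk2 with 0.0522 and Vangl2 with 0.0574. The 10 genes themselves were left out of this search, and likeness over 7 libraries is a description of these libraries only.

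Relatives of the astrocyte genes from the same protein families were compared next, since they differ in the cell types that express them. Among 27 listed relatives, 22 had enough counts to be tested, and 3 were higher and 3 lower, which is 13.6% each way beside 11.6% and 12.2% of all tested genes. Their median log2 fold change was -0.31, but -0.10 without control replicate 3, -0.12 without control replicate 4, -0.05 without both and -0.17 with the replicate block. Without knockout replicate 2 none passed in either direction, without knockout replicate 3 only 1 did in each, and without knockout replicate 1 the counts were 2 higher and 1 lower. The higher genes included Aqp9 (log2 fold change 1.15, adjusted p = 0.0235) and Sox8 (0.27, adjusted p = 0.0205), both from edgeR's quasi-likelihood test. With the replicate block 2 relatives were higher, and Aqp9 missed the threshold (1.00, adjusted p = 0.0579 from that test). The lower genes were the glutamate transporter gene Slc1a1 (-0.43, adjusted p = 0.0284), S100a16 (-0.39, adjusted p = 0.0121) and Fgfr2 (-0.32, adjusted p = 0.0306), from the same test. Vim, the filament partner of Gfap, had a log2 fold change of 0.20 (edgeR quasi-likelihood adjusted p = 0.321), and Nes, a filament of neural progenitors, had -0.34 without passing. Aldoa, the aldolase of most tissues, had -0.04 (adjusted p = 0.810), and Sox10, the regulator of oligodendroglia, -0.31 (adjusted p = 0.207), in the same test. The per-length ratio of Aldoc to Aldoa was 0.569 to 1.1 in the controls and 1.21 to 1.45 in the knockouts, and that of Sox9 to Sox10 was 0.0288 to 0.0457 and 0.0698 to 0.102. Sox9 thus stayed far below Sox10 in both genotypes. The ratio of Gfap to Vim was 2.60 to 3.48 in the controls and 3.56 to 5.54 in the knockouts. Prph, Slc6a12, Slc6a13 and Fgfr4 were among those with too few counts to be tested. The other tested relatives described here, Des (-2.76), Aqp1 (-0.36), Aqp5 (1.28), Aqp11 (0.14), Aldh1l2 (-0.76), Slc1a4 (0.08), Slc1a5 (-0.39), Slc1a6 (-0.93), S100a1 (-0.35), S100a6 (-1.35), S100a13 (-0.22) and Fgfr1 (-0.01), did not pass, with log2 fold changes in parentheses.

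**Figure D3:**
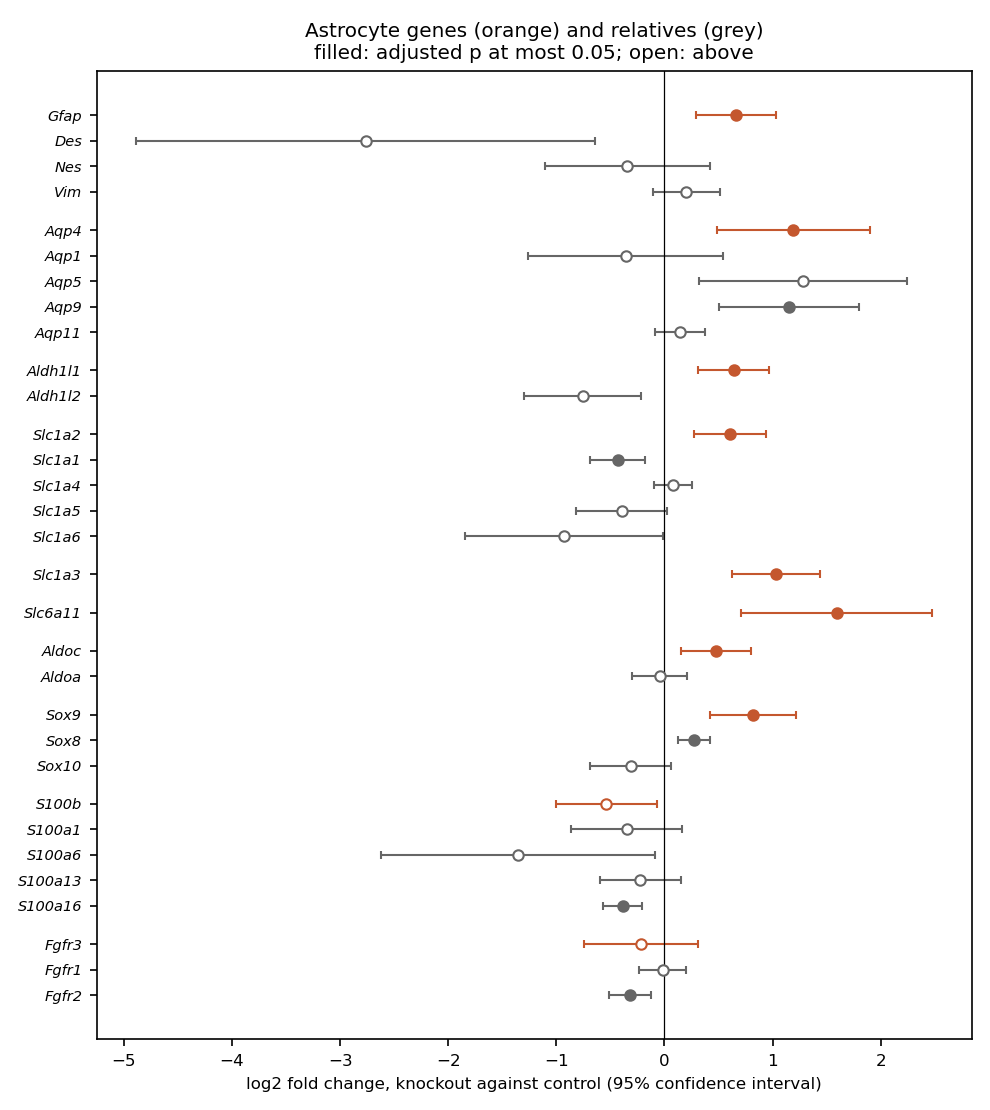
Log2 fold change, knockout against control (horizontal axis), of the 10 astrocyte genes and the family relatives described here, with 95% confidence intervals as bars and filled points for an adjusted p of at most 0.05. Slc6a11 lies at 1.59, Aqp9 at 1.15 and Slc1a1 at -0.43.

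Other genes of the astrocyte pathways were taken from lists written with earlier results of these data known. Beside their counts stand the 11.6% higher and 12.2% lower of all tested genes. Of 30 further astrocyte genes, 12 (40.0%) were higher and 2 (6.67%) lower, with a median log2 fold change of 0.53. The gap junction gene Gja1 rose by 1.44 on the log2 scale (standard error 0.18, edgeR quasi-likelihood adjusted p = 0.00224). The potassium channel gene Kcnj10, which oligodendrocytes also express, fell by 0.34 on the log2 scale (edgeR quasi-likelihood adjusted p = 0.0157), and Itih3 fell by 1.45. Glul, glutamine synthetase, had 0.53 and missed the threshold (adjusted p = 0.0615 from the same test, or 0.0270 with the replicate block). Apoe, the lipid carrier of glia, had -0.32 and did not pass, with 83756, 122472, 428417 and 75831 normalized counts across control libraries and control replicate 3 far above the other libraries. Without knockout replicate 2, 7 of the 30 genes were higher and 1 lower, where 4.57% of all tested genes were higher.

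Among 14 tested genes of transmitter uptake and turnover, 5 were higher (among them Slc38a1, Slc38a3, Glud1 and Gad1) and 1, Slc1a1, was lower, or 35.7% and 7.14%, with a median of 0.22. This median was 0.35 without control replicate 1, 0.36 without control replicate 2, and 0.10 without control replicates 3 and 4 together. The highest fold change belonged to Gad1, the enzyme of GABA synthesis in neurons (log2 fold change 1.80), while Abat, which breaks GABA down, had -0.14 and did not pass. The number higher was 1 of 13 tested without knockout replicate 2 (beside 4.57% of all tested genes), 2 of 13 without knockout replicate 3 (beside 8.27%), and 3 of 14 without knockout replicate 1 (beside 6.35%) or control replicate 3 (beside 9.54%). Slc1a1 missed the threshold with upper quartile factors and without control replicate 1 or any 1 of the knockout libraries. Of 12 genes of endfeet and junctions, Gja1 and Mlc1 (log2 fold change 0.89, edgeR quasi-likelihood adjusted p = 0.00674) were higher and Kcnj10 was lower. Both rises passed in all alternative fits, whereas Kcnj10 missed the threshold with upper quartile factors and without control replicate 1 or any 1 of the knockout libraries. Dag1, the dystroglycan that anchors Aqp4, had -0.07 and did not pass, and the median of the endfoot list was 0.11, or 0.05 without knockout replicate 3 and 0.02 without control replicates 3 and 4. Among 20 regulators of astroglial genes, Nfib (0.94), Id3 (0.56), Rfx4 (0.91) and Rorb (0.80) were higher beside Sox9, and Stat3 fell by 0.40. That is 20% higher and 5% lower. The number higher was 1 without knockout replicate 2 (beside 4.57% of all tested genes), 2 without knockout replicate 1 (beside 6.35%) or 3 (beside 8.27%), and 7 without control replicate 2 (beside 10.1%), and Stat3 was lost without control replicate 4 or any 1 of the knockout libraries. The values of Zbtb20 (0.34), Nfix (0.26) and Sox2 (-0.15) did not pass.

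Gfap is also known as a gene of reactive astrocytes, and other genes of that state were therefore listed. Of 18 such genes, 2 were higher (Cxcl10 and Aspg) and 3 lower (Timp1, Cd44 and Hspb1), which is 11.1% and 16.7% beside 11.6% and 12.2% of all tested genes. The median log2 fold change was 0.06, but its sign depended on single libraries, with -0.06 without control replicate 1, -0.09 without control replicate 2, -0.33 without knockout replicate 3, and values up to 0.26 with any 1 of the other libraries left out. Timp1 (log2 fold change -2.87, adjusted p = 0.0304) and Cd44 (-1.22) were lower by edgeR's quasi-likelihood test, and Serpina3n had -1.77 (adjusted p = 0.0520 by the same test, or 0.0399 with the replicate block). With single libraries left out, 1 to 2 genes were higher and 0 to 4 lower. None was lower without control replicate 4, knockout replicate 1 or knockout replicate 2, or without control replicates 3 and 4 together, where Timp1 had -1.41 (adjusted p = 0.0785 by edgeR's quasi-likelihood test) and Cd44 -0.72 (adjusted p = 0.0618). Genes of radial glia, the precursors that carry Slc1a3 and Sox9 in the developing brain, were higher in 4 of 12, namely Fabp7 (log2 fold change 1.08, edgeR quasi-likelihood adjusted p = 0.00882), Pax6 (1.38), Hopx (0.94) and Slc15a2 (0.55). That is 33.3% of the list, with a median of 0.45, and without knockout replicate 2 the count was 2. The abundant genes Ednrb (0.06) and Ptn (0.45) did not pass, although Ptn did with the replicate block (edgeR quasi-likelihood adjusted p = 0.0403). Among 11 genes of oligodendrocyte precursors 3 (27.3%) were higher (Vcan, Ptprz1 and Cacng4), with a median of 0.15 that was 0.10 without control replicate 2, 0.29 without control replicate 4 and 0.27 with the replicate block, and only 1 was higher without knockout replicate 1 (beside 6.35% of all tested genes) or 2 (beside 4.57%). With the replicate block Ptprz1 missed the threshold (edgeR quasi-likelihood adjusted p = 0.101). Olig1 (-0.10) and Tnr (-0.11), abundant genes of that list, did not pass. All 11 myelin genes were lower, with a median of -2.69, among them Mbp (-1.78), Cnp (-0.96) and Ermn (-3.57).

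**Figure D4:**
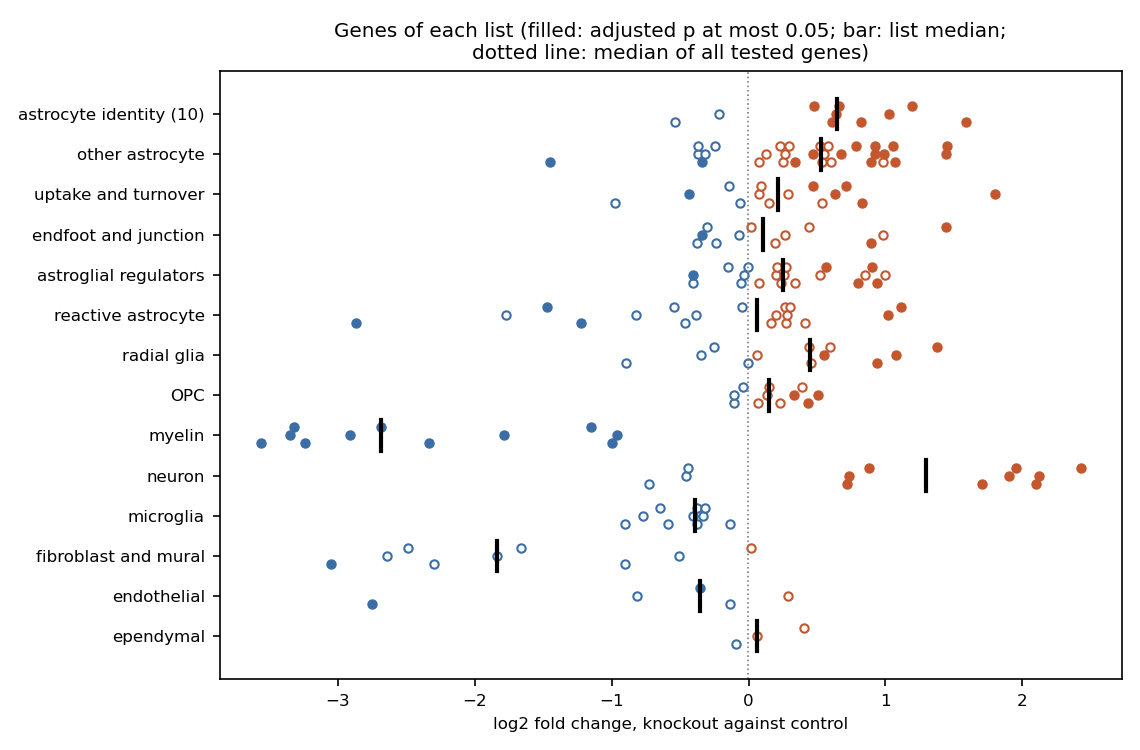
Log2 fold change, knockout against control (horizontal axis), of single genes (points) in the astrocyte list and the other lists (rows), with the median of each list as a vertical mark and filled points for an adjusted p of at most 0.05. The medians are 0.65 for the 10 astrocyte genes, 0.53 for 30 further astrocyte genes, 0.45 for radial glia, 0.06 for reactive astrocytes, where the sign changes with the libraries used, and -2.69 for myelin.

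Markers of other cell types that such a culture can hold moved along with the astrocyte genes in part. Of 12 neuron genes 9 (75.0%) were higher, beside 11.6% of all tested genes, with 1.29 as the median log2 fold change and the highest value for Dcx (2.43, edgeR quasi-likelihood adjusted p = 0.0129), a gene of immature neurons. Map2, the most abundant of them, had 0.73, while Elavl3 (-0.46), Nefm (-0.73) and Nefl (-0.45) had negative values and did not pass. The number higher was 5, with 1 gene lower, without knockout replicate 2 (beside 4.57% of all tested genes higher) and 6 without control replicates 3 and 4 (beside 6.26%). With the replicate block 9 were higher and 2 lower, one of which was Elavl3 (edgeR quasi-likelihood adjusted p = 0.0241). Their summed normalized counts were 41156 to 59461 in the controls and 79038 to 99295 in the knockouts, and none was at 0 in all libraries. Like the astrocyte genes, they were lowest in control replicate 4 and highest in knockout replicate 2, with mean centred log2 values of -0.27, 0.05, -0.59 and -1.19 across control libraries and 0.52, 0.99 and 0.48 across knockout libraries. The summed counts of the 10 astrocyte genes were 151302 to 171851 and 223814 to 254888. The part of the neuron markers in the result was not tested.

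Fibroblast and mural cell markers had summed counts of 18005 to 77024 in the controls and 8025 to 18741 in the knockouts. Control replicates 3 and 4 held the highest sums, 77024 and 61729, and these were the libraries with the lowest mean of the astrocyte genes. Without both, 8 of the 10 genes were higher, against 6.26% of all tested genes, but the number at a log2 fold change of 1 fell from 3 to 1, against 2% of all tested genes. Log2 fold changes then were 0.84 for Aqp4, 0.78 for Slc1a3 and 1.1 for Slc6a11, all smaller than in the fit of all libraries. Microglia markers, none of which passed, had sums of 17992 to 84162 and 18056 to 38562, with control replicate 3 highest. Endothelial markers had sums of 2824 to 3578 and 2188 to 2462, and ependymal markers 528 to 857 and 706 to 1108. Among 9 fibroblast and mural genes Dcn was lower, or 11.1% beside 12.2% of all tested genes. The number lower was 5 with the replicate block, among them Col1a1 (edgeR quasi-likelihood adjusted p = 0.0109) and Col1a2 (adjusted p = 0.00923), 6 under DESeq2's Wald test and 6 without control replicate 2. It was 0 under limma voom and without control replicates 1, 3 or 4 or knockout replicates 1 or 2. The share of all tested genes that were lower was not computed for any alternative fit. Counts of lower genes in those fits, here and for other lists, thus have no background beside them. Of 5 tested endothelial genes, 2 (Cdh5 and Slc2a1) were lower, or 40.0%, with 1 left without control replicates 1, 3 or 4 or knockout replicate 2 and 0 without knockout replicate 1. No ependymal gene passed by edgeR's quasi-likelihood test in the fit of all libraries. None of the markers of these 4 lists was at 0 in all libraries, and their part in the result was not tested. The share of counts on Gm42418, Gm23935 and Lars2, where reads of ribosomal RNA collect, was 6.03% to 18.0% per library, and with this share as a covariate 7 of the 10 genes were higher, beside 14.6% of all tested genes, Aldoc being lost (edgeR quasi-likelihood adjusted p = 0.0752).

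**Figure D5:**
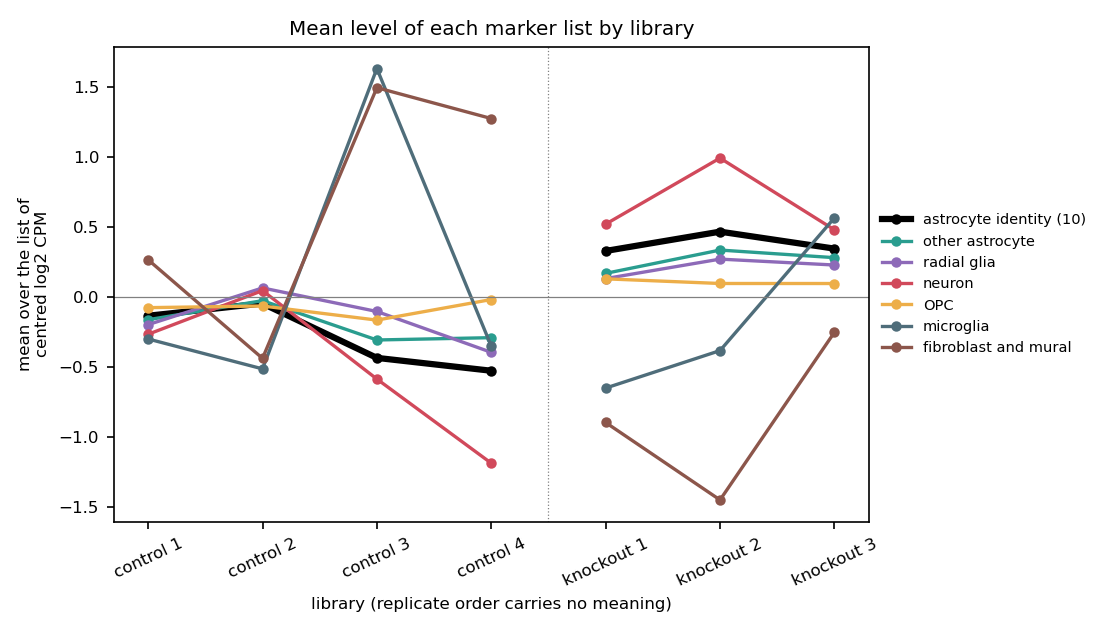
Mean centred log2 CPM (vertical axis) of the 10 astrocyte genes and of the lists of other cell types in the 7 libraries (horizontal axis). The astrocyte genes (-0.53 to 0.47) and the neuron genes (-1.19 to 0.99) have their lowest value in control replicate 4 and their highest in knockout replicate 2, and fibroblast and mural genes are highest in control replicates 3 and 4.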

How the data were processed

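RNA was extracted with the RNeasy kit, libraries were made with NEBNext Ultra II and sequenced on an Illumina NovaSeq. Per the labels and the methods, reads were trimmed (Trimmomatic 0.36), aligned to GRCm38 (STAR 2.5.2b) and assigned to exons per gene (featureCounts of Subread 1.5.2). The annotation release and the strand setting are not given in the sources used here. The authors deposited whole-number counts per gene and library, without normalization. No per-sample column beyond these was used.

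Symbols were matched for 48970 of 49315 identifiers. Counts of 4 controls and 3 knockouts entered a fit with edgeR 4.0.16 under R 4.3.3 (filterByExpr by group, TMM factors, robust quasi-likelihood fit with the group as only term, two-sided tests, Benjamini-Hochberg over 18352 genes). Standard errors were derived from the quasi-likelihood F statistic. Normalized counts are counts brought to a common scaled library size of 43945400, the mean of the 7 libraries. Levels per length use the exonic length deposited with the counts, and log2 CPM a prior count of 2. Totals of 24507471 to 59596479 counts per library set the precision, and a count of 0 allows up to 3 counts, for counting error only. The procedure was tested on simulated data.

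Libraries were grouped by genotype label. The labels give both groups replicate numbers, without saying what a number stands for. Deviations from the group means over all tested genes correlated at 0.113, 0.463 and 0.168 in the 3 same-numbered pairs (-0.529 to 0.197 otherwise). The highest of the others, 0.197, joined control replicate 4 and knockout replicate 1, above 0.113 and 0.168. The numbers were taken to pair the libraries, as an assumption that these correlations do not settle. The replicate number was also fitted as a block, in which control replicate 4 has no knockout partner. No 2 libraries of a group held the same counts within sampling noise. The 10 members and all lists were chosen with earlier results of these data known. Named genes were the members, Klf13, all family relatives, the 3 genes with the highest counts and the gene with the largest change past the threshold in each other list, and the 5 genes with the closest course. Further genes of lists in which 5 or fewer passed are named after their values were seen. The listed symbol Pc was not found. Values of some listed genes are not reported here, although the counts and medians of lists include them. Alternatives were DESeq2 1.42.0 (Wald test), limma 3.58.1 (voom), other scalings and filters, the block, the share of ribosomal-type counts as a covariate, and leaving out libraries.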

Additional observations from a re-analysis of the deposited data

Results flagged for a closer look

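In the 4 controls of each of 88 named genes, the gap between an extreme library and its nearest neighbour was compared with the whole range (Dixon's criterion), which by chance picks out about 1 in 20 groups. It picked out 8 genes. Aldoc was the only one of the 10 astrocyte genes among them, with 11106 normalized counts in control replicate 3 and 15938 in the next control. The same library was low for Ednrb, a radial glia gene, with 27537 against 37931. It was high for Aldoa, with 22515 against 17525, and for Apoe, with 428417 against 122472. The microglia genes C1qa (21476 against 4882), C1qb (19021 against 5364) and Cx3cr1 (15287 against 3567) were also highest there. In control replicate 4, the ependymal gene Rsph1 was highest, with 100.2 against 39.2. Without control replicate 3, Aldoc still passed in edgeR's quasi-likelihood test, with a log2 fold change of 0.36 (adjusted p = 0.00908).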

How the results depend on the processing

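Alternatives were compared for the counts of astrocyte genes, for their median and first component, and for each named gene. Klf13 kept its direction and call throughout, and the median log2 fold change of the 10 genes stayed between 0.58 and 0.79. The count of 8 genes higher became 5 without a filter on low counts (where 4.51% of all tested genes were higher), and 1 to 8 with single libraries left out, with the lowest counts without knockout replicate 2 (1) and knockout replicate 3 (4). Aqp4, Slc6a11 and Aldoc were lost without the filter. The count of 3 genes at a log2 fold change of 1 became 1 without the filter, 1 with the replicate block, 1 without control replicates 3 and 4 together (chosen after seeing the data) and 0 to 3 with single libraries left out, with 1 without control replicate 3 or 4 and 0 without knockout replicate 2 or 3. The replicate block gave 7 genes higher (Slc1a2 lost), where 9.49% of all tested genes were higher, and added S100b as lower, and changed no other call among the 10. The first component, 90.1%, became 78.1% with genes scaled to unit variance and 87.9% to 96.5% with single libraries left out, highest without control replicate 3. The cause was not tested in any of these.

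The log2 fold changes of 12 other named genes, none past the threshold, changed sign. With single libraries left out they ranged from -0.089 to 0.059 for Aldoa, -0.60 to 0.60 for Apoe, -0.61 to 0.51 for C1qa, -0.70 to 0.48 for C1qb, -1.11 to 0.38 for Cx3cr1, -0.12 to 0.31 for Dnah11, -0.049 to 0.11 for Ednrb, -0.047 to 0.052 for Fgfr1, -0.32 to 0.49 for Rsph1 and -0.43 to 0.033 for Sox2. Without control replicates 3 and 4 they were 0.067 for Aldoa, 0.46 for Apoe, 0.31 for Aqp1, 0.49 for C1qa, 0.52 for C1qb, 0.30 for Cx3cr1, -0.060 for Ednrb and 0.47 for Rsph1. With the ribosomal share as a covariate they were 0.44 for Apoe, 0.13 for C1qa, -0.053 for Dnah11, 0.066 for Fgfr1, 0.069 for Nes and 0.096 for Sox2. Limma voom gave 0.018 for Apoe and 0.050 for Rsph1, the block 0.45 for Rsph1, total counts 0.00068 for Aldoa and 0.027 for Fgfr1, and upper quartile factors 0.027 for Fgfr1. Of 1469 values under alternatives for 82 named genes, 1282 kept direction and side of the threshold, 111 lost and 40 gained a call, and 36 changed sign. What size of difference passed depended on the spread of the gene: Sox8 passed at 0.27, whereas S100b at -0.54 did not.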

Other observations

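Within each library, 1 of the astrocyte genes was also set beside an enzyme of its own family as a ratio of RPKM values, for a pair picked after its values were seen. Aldh1l1 to Aldh1l2, its mitochondrial counterpart, ranged from 0.318 to 0.800 in the controls and from 1.17 to 1.6 in the knockouts, so that Aldh1l2 was the more abundant of the pair in every control and Aldh1l1 in every knockout.

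Of the 30 further astrocyte genes, 19 had every knockout above every control and 2 had every knockout below, beside 18.3% and 18% of all tested genes.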
